A study of Mus musculus with 9 samples.

Results

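A run of neighbouring genes near the distal end of mouse chromosome 4, around Cptp, was read in the stomachs of newborn mice without the transcription factor C/EBPβ (gene Cebpb) and of their wild-type counterparts. The rule named 10 neighbours: Mxra8, Dvl1, Tas1r3, Cptp (Gltpd1 in the array design), Cpsf3l (now Ints11), Pusl1, Acap3, Scnn1d, Ube2j2 and C1qtnf12 (Fam132a in the design). By gene name or current symbol, 13 of the array's 55681 probes belonged to 9 of them, and Scnn1d was not analysed here. The cluster was selected on the knockout against wild-type levels of these same arrays, because Cptp, Pusl1 and C1qtnf12 were lower in the knockout. The knockout against wild-type differences of the members are therefore given as a description, without p-values, and those 3 falls are no finding. All 13 probes passed the filter on dim signal used for the fit, which asked for a flag of well above background from 4 or more of the 9 arrays. By size of fall, C1qtnf12 (−0.88 on the log2 scale) was the last of the 3 genes that chose the cluster and Tas1r3 (−0.61) the next outside.

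The groups were 5 knockout mice (genotype C/EBPbeta KO, KO 1 to KO 5) and 4 wild-type mice (genotype WT, WT 1 to WT 4), each with 1 Agilent 1-colour array of whole-stomach RNA. The mice were killed at birth, although the source label calls them old. The labels give neither strain nor sex, nor which part of Cebpb was removed, and they name no treatment. Levels are in log2 units relative to the 75th percentile of processed signal on the same array, so that 0 is a signal at that percentile. The 75th percentile itself ran from 221 on WT 4 to 472 on KO 3. Cebpb stood at −2.18 ± 0.60 (SD, n = 5) in knockout and 3.30 ± 0.30 (SD, n = 4) in wild type, so each array matched its label. All 9 stomach markers examined were well above background on all 9 arrays. Y-linked signal was missing on KO 2, KO 4 and KO 5 and on no wild-type array. WT 4 stood apart from its group, with a mean correlation of 0.950 with the other wild-type arrays against 0.973 to 0.976 for WT 1 to WT 3. In bulk tissue, fewer cells of a type and less RNA per cell cannot be told apart.

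The members share a place on the chromosome, not a pathway. Cptp encodes a protein that carries ceramide 1-phosphate between membranes, and Pusl1 encodes a protein of the pseudouridine synthase family, which modifies uridine in RNA. Ints11 encodes the endonuclease of the Integrator complex, which cleaves nascent small nuclear RNAs and other transcripts. Acap3 encodes a GTPase-activating protein for Arf proteins, and Ube2j2 a ubiquitin-conjugating enzyme of the endoplasmic reticulum. C1qtnf12 encodes a secreted protein related to C1q and TNF, Dvl1 a cytoplasmic relay of Wnt signals, Tas1r3 a subunit of the sweet and umami taste receptors, and Mxra8 a cell surface protein that also serves as a receptor for arthritogenic alphaviruses. Scnn1d is named after the delta subunit of the epithelial sodium channel.

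The results turn on 6 probes of 4 genes, and a pair of them carry the largest measured differences. Each probe is 60 bases long. The last 30 bases of each are shown 5′ to 3′ to tell apart the probes of the same gene, with the polyadenylation signal motif AATAAA, searched on the probe's own strand, in capitals.
Cptp probe 1: cactgtgatatatgtagtatttccaacaaa
Cptp probe 2: taaagatacaacagttgatatgtgtgccac
Ints11 probe 1: aaaaatggccttcctcaggctcccagctga
Ints11 probe 2: gcacAATAAAtgttgtacaatctccacttc
Pusl1: agttgctccagcccgtggcctgttcttgaa
C1qtnf12: gagctgaagaaacgattgtggattgaggaa
On mm9, the build of the array design, the Cptp probes lie on the minus strand at chr4:155239406-155239465 (probe 1) and chr4:155238832-155238891 (probe 2), from positions 2028 and 2602 of the transcript. The Ints11 probes lie on the plus strand at chr4:155262735-155262794 (probe 1) and chr4:155263153-155263212 (probe 2), from positions 1869 and 2287 of the transcript. The Pusl1 probe follows 353 bases beyond Ints11 probe 2 on the other strand, at chr4:155263566-155263625, and the C1qtnf12 probe lies on the plus strand at chr4:155340584-155340643. In both genes with a numbered pair, probe 2 is thus the one nearer the 3′ end of the transcript. Only Ints11 probe 2 and the Acap3 probe hold AATAAA among the 13, a motif found in 12.3% of the probes tested. Exons and untranslated regions were not annotated here.

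The Ints11 probes differed from each other in how far the genotypes stood apart. Ints11 probe 1 read 1.50, 1.70, 1.46, 1.57 and 1.26 in knockout (KO 1 to 5) and 1.92, 1.90, 1.45 and 1.16 in wild type (WT 1 to 4). The groups overlapped, and the difference was −0.11 ± 0.19 (log2, SE). Ints11 probe 2, which starts 418 bases further along the same transcript, read −6.14, −6.29, −7.19, −6.61 and −7.30 in knockout (KO 1 to 5) and 0.29, 0.24, 0.18 and −0.21 in wild type (WT 1 to 4). Its groups stood 5.93 log2 units apart at their nearest arrays. In processed signal, the knockout arrays read 2.91 to 4.69 and the wild-type arrays 190.8 to 504.6. Ints11 probe 2 was well above background on all 4 wild-type arrays and on no knockout array. It was therefore at least 25.9-fold lower, with each knockout array set to the dimmest signal that was still flagged well above background, where its own was dimmer. The measured difference was −6.83 ± 0.27 (log2, SE), but its knockout side lies in the background, so it has no firm size. The bound holds only for processed signal with that floor. With the normexp correction, described with the other settings, the fall was 8.90-fold. The brightest probe, which stands for the gene in the fit over genes, is probe 1.

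Cptp was lower in the knockout on both of its probes. Cptp probe 1 read 0.30, 0.36, 0.98, 0.63 and 0.37 in knockout (KO 1 to 5) and 2.28, 2.23, 2.47 and 1.73 in wild type (WT 1 to 4). The groups did not overlap, KO 3 being the highest of the knockouts and WT 4 the lowest of the wild types. The difference was −1.65 ± 0.21 (log2, SE), a 3.14-fold lower signal. Cptp probe 2 read −6.70, −6.07, −6.99, −6.53 and −7.10 in knockout (KO 1 to 5) and −2.13, −2.37, −2.15 and −2.57 in wild type (WT 1 to 4). No knockout array was well above background there and all 4 wild-type arrays were. With the same floor, the processed signal was at least 4.80-fold lower, against 2.50-fold with the normexp correction. The measured difference of Cptp probe 2 was −4.37 ± 0.22 (log2, SE), again with a knockout side in the background.

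**Figure D1:**
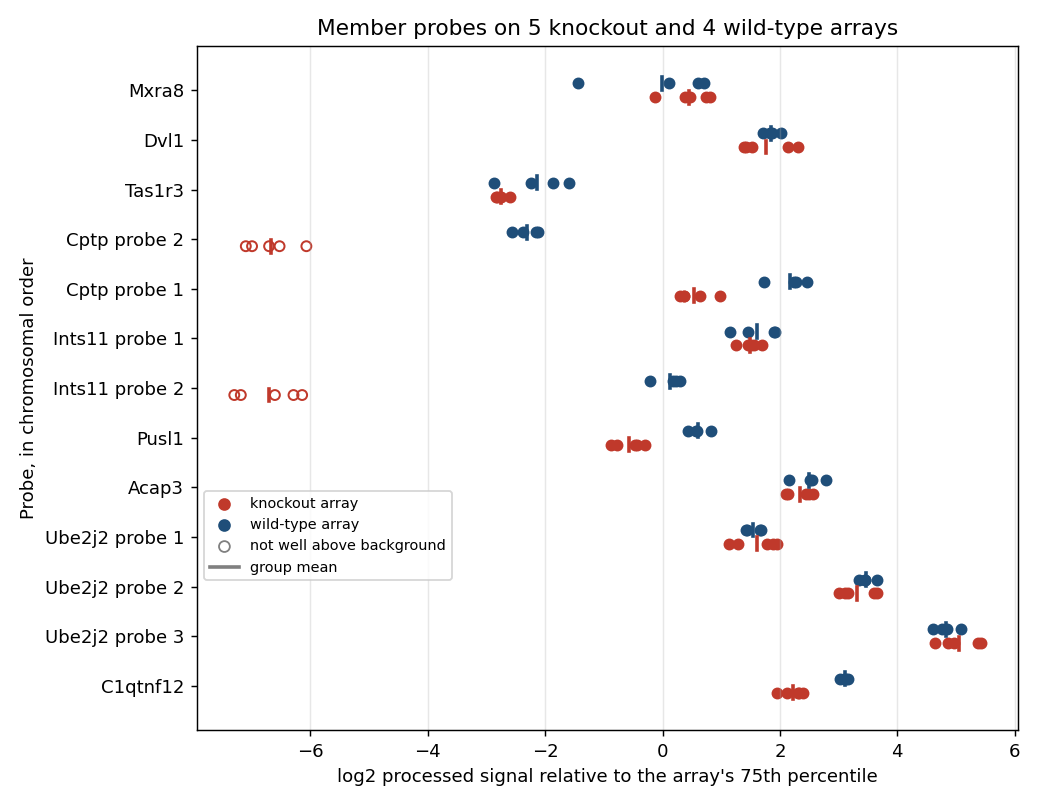
Log2 processed signal relative to the array's 75th percentile (x axis) for the 13 member probes in chromosomal order (y axis), with 1 point per array, knockout in red and wild type in blue, open where the probe was not well above background, and a bar at each group mean. Ints11 probe 2 and Cptp probe 2 have open knockout points between −7.30 and −6.07 and filled wild-type points, whereas Ints11 probe 1 overlaps between the genotypes.

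Pusl1, the neighbour of Ints11 on the opposite strand, had 1 probe. It read −0.30, −0.44, −0.47, −0.89 and −0.78 in knockout (KO 1 to 5) and 0.56, 0.59, 0.83 and 0.43 in wild type (WT 1 to 4). Its groups did not overlap, and the difference was −1.18 ± 0.17 (log2, SE), a 2.26-fold lower signal. C1qtnf12, at the far edge of the cluster, read 2.31, 2.39, 2.12, 2.33 and 1.94 in knockout (KO 1 to 5) and 3.03, 3.12, 3.17 and 3.09 in wild type (WT 1 to 4). The groups did not overlap there either. The difference was −0.88 ± 0.14, a 1.85-fold lower signal, and the wild-type arrays spread by no more than 0.059 (SD, n = 4).

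The other members overlapped between the genotypes. Acap3, which lies next to Pusl1, stood at 2.35 ± 0.21 (SD, n = 5) in knockout and 2.50 ± 0.26 (SD, n = 4) in wild type, a difference of −0.15 ± 0.18 (SE). The 3 Ube2j2 probes differed by 0.06 ± 0.21, −0.17 ± 0.18 and 0.23 ± 0.20. The Ube2j2 probe nearest the start of the transcript spans 867 bases of the genome and so crosses an intron. Dvl1 stood at 1.76 ± 0.44 in knockout and 1.85 ± 0.12 in wild type, a difference of −0.10 ± 0.23. Within the knockouts, Dvl1 was higher on KO 1 and KO 2 (2.14 and 2.32) than on KO 3 to KO 5 (1.52, 1.38 and 1.42).

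Tas1r3 and Mxra8, on the other side of Cptp, spread more among the wild-type arrays than among the knockouts. For Mxra8 this rested on WT 4 alone, as WT 1 to WT 3 lay within the knockout range. Tas1r3 read −2.84 to −2.59 on the knockout arrays, with a median of −2.77. The wild-type arrays read −2.88, −2.25, −1.60 and −1.86, so that WT 1 alone reached into the knockout range. Its difference was −0.61 ± 0.24 (log2, SE), with a range of −0.85 (without WT 1) to −0.42 (without WT 3) when 1 array was left out. Within slide 1 it was −0.97 and within slide 4 −0.18. Mxra8 read −0.14, 0.39, 0.47, 0.74 and 0.81 in knockout (KO 1 to 5) and 0.11, 0.60, 0.71 and −1.45 in wild type (WT 1 to 4). Its difference of 0.46 ± 0.42 came to −0.02 without WT 4.

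In the fit over 21723 genes, each read from its brightest probe (limma, Benjamini-Hochberg adjusted p below 0.05), 44 genes or 0.203% passed, 27 higher and 17 lower. Those lower were 0.0783% of all genes. Of the 9 members 3 passed, all lower, which restates how the cluster was picked. In the fit over 30190 single probes, 42 probes or 0.139% passed, 0.0662% being lower, and 4 of the 13 member probes were among them, namely the Cptp pair, Ints11 probe 2 and Pusl1. Groups that did not overlap, with the knockout lower, were found for 5 of the 13 member probes and for 1.14% of all probes, or 3.16% in either direction. Nothing is read from these counts of members, since the rule used the same contrast. Of the 30190 probes, 5 (0.0166%) were well above background on every wild-type array and on no knockout array. Ints11 probe 2 and Cptp probe 2 were 2 of these, 24.4 kb apart, and the other 3 read Gstp3 on chromosome 19, Defb3 on chromosome 8 and Bend4 on chromosome 5. Each of the 5 met the filter on dim signal only through the wild-type arrays, so nothing is read from this count either.

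The split between probes of 1 gene was measured across the array. For 5964 genes with at least 2 probes that passed the filter, the range of the differences between a gene's probes had a median of 0.21 (log2). It was over 2 in 14 genes (0.235%). The measured range was 6.72 for Ints11 and 2.72 for Cptp, both resting on knockout signal in the background and so of no firm size or rank. With the normexp correction, described with the other settings, the Ints11 probes differed by −0.10 and −3.15 and the Cptp probes by −1.53 and −1.32. The range of the 3 Ube2j2 probes was 0.40.

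**Figure D2:**
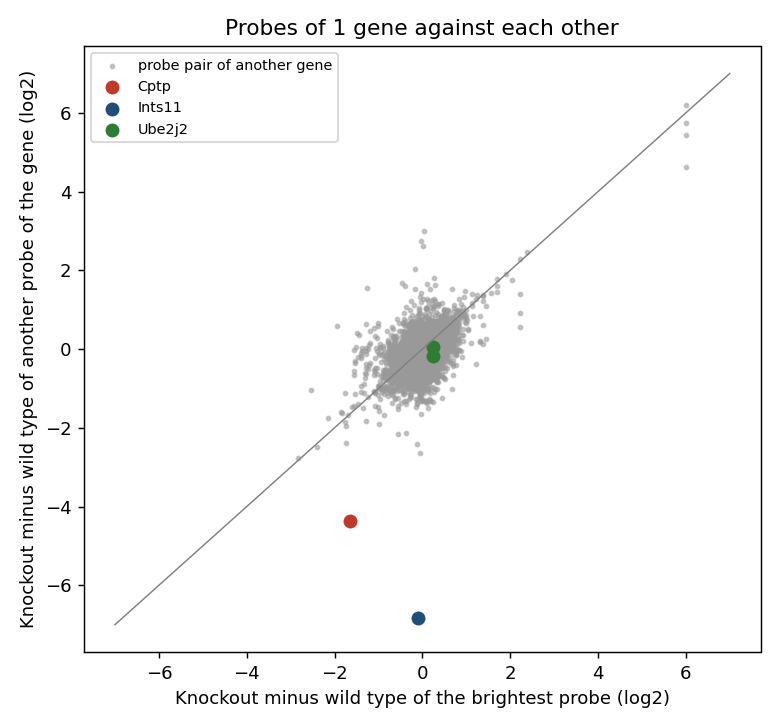
Knockout minus wild type (log2) of a gene's brightest probe (x axis) against each other probe of the same gene that passed the filter (y axis), for 8467 pairs of probes, with a line of equality. The Ints11 point lies at −0.11 and −6.83 and the Cptp point at −1.65 and −4.37, below the cloud, while the Ube2j2 points lie within it.

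Genes on either side were examined to see how far the differences reached along the chromosome. Of 54 other genes or transcripts tested within 1 Mb of the outermost member probes, 0 passed in limma, against 0.203% of all genes, and 5 had an unadjusted p below 0.05, against 8.73% of all genes. Those 5 were all lower in knockout, a side that held 3.68% of all genes, and none passed. The smallest p was that of Prxl2b, a gene at the proximal edge of that window, at −0.99 ± 0.30 (log2, SE; limma adjusted p = 0.364), whose groups did not overlap. Gabrd, a GABA receptor subunit gene, lay at −0.77 ± 0.30 (adjusted p = 0.498) and Vwa1, an extracellular matrix protein gene on the same side, at −0.70 ± 0.26 (adjusted p = 0.482). The groups of these 2 genes overlapped, and the remaining 2 of the 5, Gm5801 and an unnamed transcribed region, are described further on. The median difference of the 54 was −0.06, beside 0.00 for all genes. Next to Mxra8, Aurkaip1, which encodes an Aurora A kinase-interacting protein, lay at 0.10 ± 0.14 (log2, SE), Ccnl2, the cyclin L2 gene, at −0.19 ± 0.19 and the transcript AI428898 at 0.21 ± 0.38. Next to C1qtnf12, B3galt6, a galactosyltransferase gene of proteoglycan synthesis, lay at 0.09 ± 0.14, Sdf4, which encodes a calcium-binding protein of the Golgi, at 0.12 ± 0.15 and Tnfrsf4, the OX40 receptor gene, at −0.17 ± 0.19. None of these 6 passed the test. Without WT 4, 1 flanking transcript passed, the unnamed transcribed region, just beyond Isg15, at −1.30 ± 0.24 (limma adjusted p = 0.0498). Over all arrays it lay at −0.98 ± 0.32 (adjusted p = 0.418).

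One further probe lies inside the cluster, that of Gm5801, which starts 7 bases before Ube2j2 probe 2 on mm9. It lay at −0.76 ± 0.27 (log2, SE; limma adjusted p = 0.443), while Ube2j2 probe 2 lay at −0.17. The sequences of these probes share a run of 30 bases, and which gene either reads is uncertain.

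**Figure D3:**
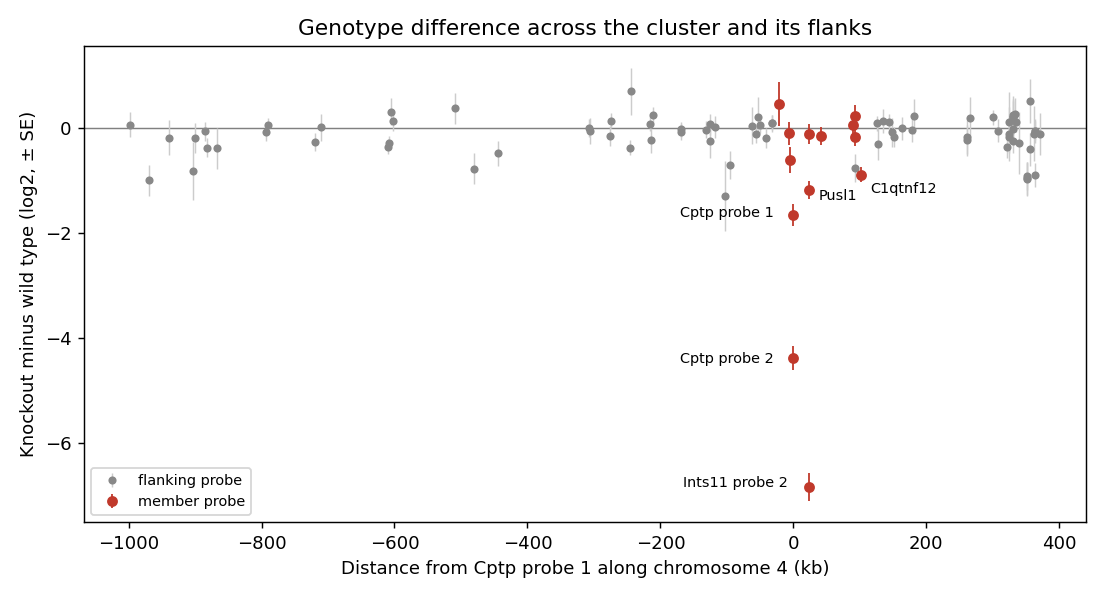
Knockout minus wild type (log2, with bars of ± SE) of each probe that passed the filter (y axis) against its distance from Cptp probe 1 along chromosome 4 in kb (x axis), members in red and flanking probes in grey. Cptp probe 2 at −4.37 and Ints11 probe 2 at −6.83 lie below the flanking probes, the lowest of which is Atad3aos at −1.29 ± 0.67.

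The genes of the members' pathways, listed by role, were set beside them. Of 48 relatives tested, 0 passed in limma, against 0.203% of all genes, and 4 had an unadjusted p below 0.05, against 8.73% of all genes. Those 4 were all higher in knockout, and the median difference of the 48 was 0.06. Those with the smallest p were Agap1, an Arf GTPase-activating protein gene (0.46 ± 0.16, limma adjusted p = 0.422), the taste channel gene Trpm5 (0.54 ± 0.19, adjusted p = 0.448) and Asap2, another Arf GTPase-activating protein gene (0.63 ± 0.23, adjusted p = 0.480). All 5 tested genes of ceramide and glycolipid transfer or of ceramide 1-phosphate, the group nearest in role to Cptp, lay between −0.58 and 0.55. The highest was Pla2g4a, the last of those 4 (limma adjusted p = 0.529). The 11 other pseudouridine synthase genes lay between −0.38 and 0.06. Of 18 genes of the Integrator complex and of the related cleavage machinery tested, 0 passed in limma, and 2 had an unadjusted p below 0.05, against 8.73% of all genes. The latter were Nabp1, whose product binds single-stranded DNA with Integrator subunits (−0.98 ± 0.35, limma adjusted p = 0.461), and Ints2 (−0.54 ± 0.21, adjusted p = 0.510). The next smallest p was that of Ints1 (−0.29 ± 0.21, adjusted p = 0.781).

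RefSeq (GRCm38.p6) places the start sites of Cptp and Ints11, and those of Pusl1 and Acap3, back to back on opposite strands, so that each pair shares its upstream sequence. The stretches between the start sites of the RefSeq promoter table are shown because 1 gene of each pair (Cptp, Pusl1) had groups that did not overlap on any of its probes, while the other (Ints11 probe 1, Acap3) had a probe whose groups overlapped. They are given on the plus strand, at chr4:155869441-155869566 and chr4:155891763-155891874, with CCAAT on either strand in capitals.
Between Cptp and Ints11: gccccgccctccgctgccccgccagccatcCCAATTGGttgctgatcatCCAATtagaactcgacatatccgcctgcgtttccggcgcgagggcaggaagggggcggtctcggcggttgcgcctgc
Between Pusl1 and Acap3: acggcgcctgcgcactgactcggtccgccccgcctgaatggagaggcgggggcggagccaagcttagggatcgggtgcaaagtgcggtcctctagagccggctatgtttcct
The stretches are 126 and 112 bases long, with 66.7% and 66.1% G and C. CCAAT was found 3 times in the first, once on the strand opposite to the other matches and overlapping one of them, and 0 times in the second. It was present in 37.4% of all 32851 RefSeq promoter windows, from 250 bases before to 50 after the start. The table held 9 windows of 8 members, with 2 for Ube2j2, and C1qtnf12 was not among them. Of these 9, CCAAT was present in those of Cptp and Ints11, which are overlapping sequence. The C/EBP motif TTNNGNAA, searched on both strands, was present in 1 of the 9, that of Tas1r3, and in 40.7% of all windows. The palindrome TTGCGCAA was in 0 of the 9 and in 0.183% of all windows. A match of letters is a description of the sequence, not a binding site.

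The differences were also read within slides, since slide 1 held KO 4, KO 5, WT 3 and WT 4 and slide 4 held KO 2, WT 1 and WT 2. Ints11 probe 2 differed by −6.93 within slide 1 and −6.55 within slide 4. Cptp probe 2 differed by −4.45 and −3.82 and Cptp probe 1 by −1.60 and −1.89. Pusl1 differed by −1.46 and −1.01 and C1qtnf12 by −0.99 and −0.69. For these 5 probes the groups did not overlap, so the direction within each slide could only be that over all arrays. That direction is therefore no check against slide. Dvl1 differed by −0.37 within slide 1 and 0.38 within slide 4.

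KO 3 was alone on slide 2 and KO 1 on slide 3, so with slide as a block neither added to the genotype difference. In that fit 11 of 30190 probes passed (0.0364%), Ints11 probe 2 (−6.78 ± 0.25) and Cptp probe 2 (−4.20 ± 0.26) among them, and the other 11 member probes did not. Both met the filter on dim signal only through the wild-type arrays, and the cluster was chosen on the same contrast, so their passing supports nothing further. With the same block in the fit over genes, 0 of the 9 members and 5 genes in all passed. Over the 6 arrays with Y-linked signal, KO 1 and KO 3 against the 4 wild types, the difference was −6.79 for Ints11 probe 2, −4.54 for Cptp probe 2, −1.54 for Cptp probe 1, −0.99 for Pusl1 and −0.89 for C1qtnf12. Leaving out any 1 array kept Ints11 probe 2 between −6.97 and −6.68 and Cptp probe 2 between −4.53 and −4.27. The groups of these probes did not overlap, so no subset of arrays could turn the direction. It is therefore no check against Y-linked signal or single arrays.

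The size at the dim probes depended on how the background was treated. With the normexp correction and its offset of 50 signal units added to every spot, Ints11 probe 2 came to −3.15 and Cptp probe 2 to −1.32, the latter then smaller than Cptp probe 1 at −1.53. The order of the Cptp probes by size of difference therefore turned with this setting, and that of the Ints11 probes did not.

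**Figure D4:**
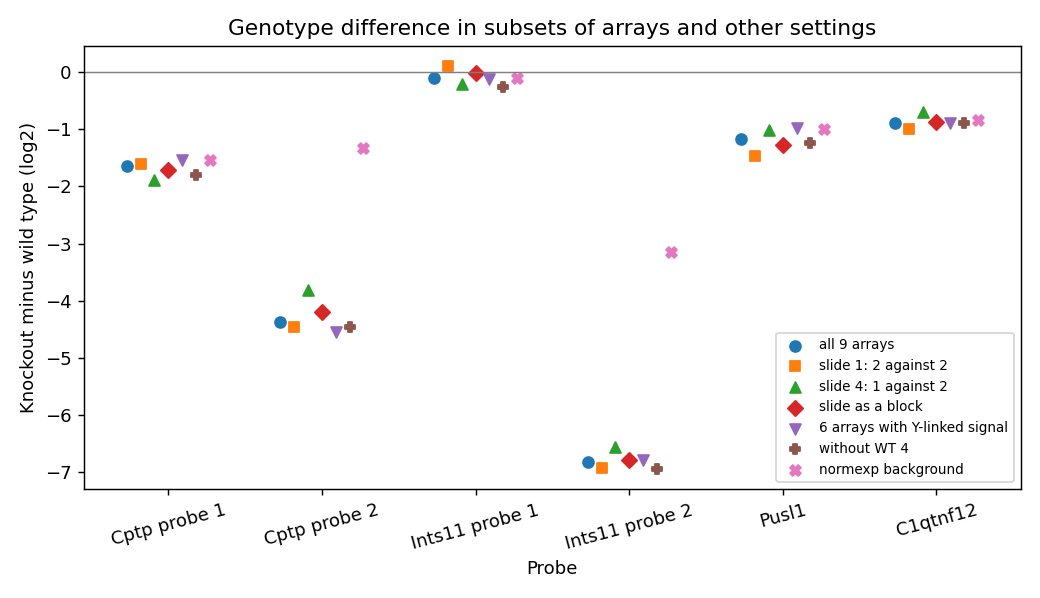
Knockout minus wild type (log2, y axis) of 6 probes (x axis) over all 9 arrays, within slide 1 and slide 4, with slide as a block, over the 6 arrays with Y-linked signal, without WT 4 and with normexp background correction, 1 symbol per setting. Ints11 probe 2 stays between −6.93 and −6.55 in the settings shown other than normexp, at −3.15, and without WT 4, at −6.94, while Ints11 probe 1 lies near 0.

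Across the 9 arrays, the genes whose levels followed Cptp probe 1 most closely, out of 21722 others, were Nppa, the atrial natriuretic peptide gene (Pearson r = 0.978), Cebpb itself (0.969), the transcript TC1600187 (0.966), Gstp3, a glutathione S-transferase gene (0.961), and Zswim1, a zinc finger gene (0.960). Nppa is on chromosome 4 too, and none of the others is. Pusl1 ranked 12th (0.927) and C1qtnf12 19th (0.908), whereas Acap3 ranked 2583rd (0.472) and Ints11 by probe 1 4638th (0.318). These values hold the genotype difference itself. Of the deviations from the genotype means, the correlation with Cptp was 0.73 for Nppa, 0.60 for Cebpb, 0.64 for TC1600187, 0.44 for Gstp3 and 0.86 for Zswim1. Among the members it ran from −0.28 for Dvl1 to 0.69 for Mxra8, with 0.22 for Pusl1 and −0.07 for C1qtnf12. For both Mxra8 and Cptp probe 1, WT 4 was the lowest wild-type array, at −1.45 and 1.73. These correlations over 9 arrays were not tested.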

How the data were processed

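The deposited scanner files hold spot intensity on a linear scale, made by the authors with Feature Extraction 10.5.1.1 on a design annotated on mm9, per the file headers (the submitters' processing notes name version 9.1). That intensity was background-subtracted and spatially detrended by the authors' scanner software, per the file headers. The deposited flags of another kind per spot mark well above background, saturation and outliers. The authors' deposited series matrix holds log2 values, which followed log2 processed signal within 0.001 for 24314 of 24594 probes after centring arrays; what each probe was centred on stays unknown. Its column medians were 0.043, 0.216, −0.124, 0.033 and −0.136 in knockout (KO 1 to 5) and −0.277, −0.161, 0.222 and 0.379 in wild type (WT 1 to 4).

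Control spots (3671 of 62976) and outlier spots were left out, spots of a probe averaged, and 21 probes without a value on some array dropped; 0 spots were saturated. On each array 50.9% to 57.2% of spots exceeded background by the scanner's flag, and the number of arrays limits the precision. limma 3.58.1 in R 4.3.3 (lmFit, eBayes, two-sided, no covariate) was fitted over genes by brightest probe and over single probes, which gave the probes' SE, and tested on simulated data. Through accessions, 26756 probes matched RefSeq, used for names only. Forestomach (4 of 4), liver (3 of 4), pancreas (2 of 4), intestine (2 of 3) and skeletal muscle markers (3 of 3) were well above background on all arrays. Members and lists were chosen with earlier results of these data known. Named were all members, the 3 nearest genes on each flank, genes of a list with the smallest p or, on the flanks, an unadjusted p below 0.05 (the latter chosen after their values were seen), and the 5 most like Cptp. Alternatives were background correction, scaling, the deposited matrix, the dim filter, the probe rule, slide and replicate blocks, each array left out and, chosen after seeing the data, Y-linked signal and within-slide values. The labels number separate mice, and p-values measure the spread between them.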

Additional observations from a re-analysis of the deposited data

How the results depend on the processing

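Over all genes, 44 passed. The count was 22 with no filter on dim probes, 5 with slide as a block, and 11 to 161 with 1 array left out, lowest without WT 1 and highest without WT 4. It was 28 without KO 2, 18 without KO 3, 23 without KO 4 and 17 without WT 2 or WT 3. In fits added after seeing the data, it was 4 with Y-linked signal as a covariate and 4 when only arrays carrying that signal were used. Of the members, 3 passed over genes. The count was 1 with median scaling, 1 with no filter on dim probes, 0 with slide as a block, 0 in either of the fits on Y-linked signal and 0 to 3 with 1 array left out, being 0 without WT 1, WT 2 or WT 3 and 1 without KO 2, KO 3, KO 4 or KO 5. Among flanking genes 0 passed, and 0 to 1 with 1 array left out. The counts of relatives and of Integrator genes were 0 under each alternative run for them, which leaves out the fits on Y-linked signal. Of 250 differences of single members recomputed under alternatives, 239 moved by less than the SD between arrays and 11 by more. No called one changed sign, but leaving arrays out could not have changed it, as their groups did not overlap. With all probes averaged, Cptp came to −3.01 and Ints11 to −3.47. The cause of these shifts was not tested. With the replicate numbers as a block, 4 genes and 0 members passed. The numbers name mice in each group, and the labels state no pairing. The same-numbered arrays correlated at −0.30, 0.12, 0.15 and −0.48 in their deviations from the group means. These values are too few to tell whether any mice were paired. Signal over background limits the sizes at Ints11 probe 2 and Cptp probe 2, whose knockout signal is only a bound.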
